A study of Mus musculus with 4 samples.

Results

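The WNT genes described here are the ligands, their frizzled receptors, the secreted inhibitors that bind ligand or receptor, and 4 genes of feedback and nuclear response, read in the heads of FoxO6-/- and WT mice. Members were taken by gene symbol. They are genes named Wnt, Fzd, Sfrp or Dkk with a number, together with Frzb, Wif1, Notum, Rnf43, Znrf3, Lef1 and Axin2, as long as a probe set carried that gene alone. This gave 45 members among 18193 named genes, namely 19 ligands, 10 receptors, 11 secreted inhibitors, the 4 feedback and nuclear genes, and Fzd10os, an antisense transcript that the name pattern took in. Each member was represented by its brightest probe set, by mean over the 4 arrays, and 27 of the members had more than 1 probe set.

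The study hybridized each of 4 RNA samples to 1 Affymetrix mouse genome array, from mandible and maxilla and from brain of FoxO6-/- and WT mice. The deletion replaced the FoxO6 coding region with LacZ and a neomycin resistance gene, in ES cells of C57BL/6 origin that were passed through BALB/cJ blastocysts, and mice were kept on C57BL/6. All 4 arrays are labelled postnatal day 0. Elsewhere the mandible and maxilla tissue is described as late embryonic. For each mandible and maxilla array the RNA of 4 animals was combined. The methods describe the pooled mutant mice as nulls and heterozygotes, whereas the array labels give FoxO6-/-. Which genotypes went into which pool is not stated. No probe set was named for the deleted gene, so its loss could not be used to check the genotype labels.

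WNT ligands are lipid-modified secreted glycoproteins that bind frizzled receptors and LRP co-receptors at the cell surface. In the canonical branch this stabilizes beta-catenin, which enters the nucleus with LEF and TCF factors, and in the polarity branch it steers cell shape and orientated growth. In the head the pathway is known for the outgrowth of the facial processes, for tooth and bone formation and for the patterning and wiring of the brain.

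The deposited values are MAS5 signals, a background-corrected intensity on a linear scale, and their mean without the outer 2% at each end was 500.0 on each of the 4 arrays. The median of all signals, 101, served as a floor, and a gene entered a comparison when its mean over the arrays compared was at or above it. Precision is limited by the number of arrays. There were no replicate arrays, so that within a tissue the FoxO6-/- array is 1 sample against 1 and has no test. For the difference between tissues the 2 arrays of a tissue, which differ in genotype, stood in for replicates. The SD of the difference in log2 genotype ratio between the 2 brightest probe sets of a gene was 0.41 in mandible and maxilla, against 0.39 in brain. The ratio of 3' to 5' signal of Actb, which rises as RNA breaks down, was 3.37 for FoxO6-/- mandible and maxilla and between 2.21 and 2.23 for the other arrays. For Gapdh it was 1.95 for that array and between 1.44 and 1.55 for the others.

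The tissue labels were set against marker genes before the WNT genes were read. The 8 neuron markers had summed signals of 42270 and 53140 in brain, against 3678 and 5508 in mandible and maxilla, and enamel markers 87 and 179 against 6524 and 9913 over 6 genes, so both labels were borne by their own markers. The arrays labelled brain also carried signal of other head tissues. For the 5 markers of oral and skin epithelium the summed signals were 11010 and 15290 on these arrays and 37390 and 48020 on the mandible and maxilla arrays, with all 5 called higher in mandible and maxilla by limma. For 6 skeletal muscle markers they were 38950 and 45220 against 74900 and 80550, with 4 called, and for 4 bone markers 19790 and 22180 against 31450 and 33480, with 1 called. The 7 cartilage markers had 29520 and 50660 in brain against 29010 and 45740, with 0 called, and no marker was listed at 0. Whether such tissue contributed to a difference between mandible and maxilla and brain given below was not tested. In bulk RNA, fewer cells of a type and less RNA per cell cannot be told apart.

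**Figure D1:**
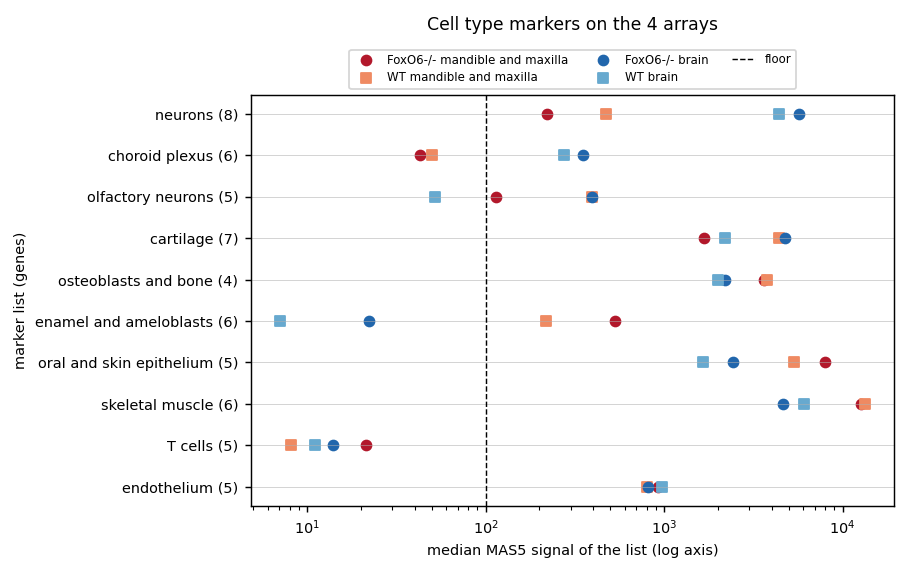
Median MAS5 signal of each marker list (horizontal log axis) on each of the 4 arrays, with the number of named genes in brackets and the floor as a dashed line. Neuron markers lie to the right on both brain arrays and enamel markers on both mandible and maxilla arrays, while muscle, epithelium, bone and cartilage markers are well above the floor on every array.

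Promoter sequences are shown for 4 of the members for which RefSeq (GRCm38.p6) gave one, each 300 bases long from 250 bases before the transcription start to 50 after it, 5' to 3' on the strand of the gene. Wnt4 and Wnt6 were called higher in mandible and maxilla. Wnt7a was above the floor in brain alone on its brightest probe set, which is a description and not support for a difference. Dkk1, which fell short of the test between tissues, holds a TCF/LEF motif, the letters by which LEF1 and its relatives bind DNA. The Wnt4 promoter lies at chr4:137277385-137277684 on the plus strand, that of Wnt6 at chr1:74771642-74771941 on the plus strand, that of Wnt7a at chr6:91411304-91411603 on the minus strand and that of Dkk1 at chr19:30549447-30549746 on the minus strand. Capitals mark the motif, which in Dkk1 begins 98 bases before the start.
Wnt4: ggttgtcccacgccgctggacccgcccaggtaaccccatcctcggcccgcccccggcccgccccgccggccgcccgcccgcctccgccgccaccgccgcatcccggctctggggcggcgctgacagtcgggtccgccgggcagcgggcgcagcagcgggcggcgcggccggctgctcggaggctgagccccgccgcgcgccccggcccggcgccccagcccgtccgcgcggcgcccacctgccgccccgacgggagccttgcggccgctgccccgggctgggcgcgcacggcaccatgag
Wnt6: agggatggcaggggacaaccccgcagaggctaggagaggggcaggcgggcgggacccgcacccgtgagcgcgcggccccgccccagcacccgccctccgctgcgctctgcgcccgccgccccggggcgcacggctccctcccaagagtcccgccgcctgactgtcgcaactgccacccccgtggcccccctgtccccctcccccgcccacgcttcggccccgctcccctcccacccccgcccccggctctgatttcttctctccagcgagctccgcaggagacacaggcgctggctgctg
Wnt7a: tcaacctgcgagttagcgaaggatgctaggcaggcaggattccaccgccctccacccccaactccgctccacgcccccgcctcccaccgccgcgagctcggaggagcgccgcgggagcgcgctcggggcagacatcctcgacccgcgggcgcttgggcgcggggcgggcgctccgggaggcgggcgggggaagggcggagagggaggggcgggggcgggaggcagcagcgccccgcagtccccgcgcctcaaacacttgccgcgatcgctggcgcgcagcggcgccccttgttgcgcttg
Dkk1: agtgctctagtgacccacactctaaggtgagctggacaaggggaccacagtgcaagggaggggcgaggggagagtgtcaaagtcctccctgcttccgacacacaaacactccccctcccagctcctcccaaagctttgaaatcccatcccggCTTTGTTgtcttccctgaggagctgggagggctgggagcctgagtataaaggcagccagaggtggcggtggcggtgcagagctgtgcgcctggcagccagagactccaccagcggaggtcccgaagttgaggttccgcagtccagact

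The letters G and C made up 84.3% of the Wnt4 promoter, 76.7% of that of Wnt6, 76.0% of that of Wnt7a and 60.7% of that of Dkk1. RefSeq sequence was found for 30 of the 45 members, with 37 promoters in all. The TCF/LEF motif was searched as CTTTGAT or CTTTGTT on both strands. It was found in 5 of the 37 promoters, those of Dkk1, Fzd7, Wnt11, Wnt3 and Wnt5b, and in 9.33% of the 32851 promoters of all genes. The forkhead motif of FOXO factors was searched as GTAAACA on both strands, and its reverse complement can share letters with the end of CTTTGTT. It was found in 0 of the 37 and in 3.65% of all promoters. A match describes these letters and this window only, and the arrays give no measure of binding.

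Of the 45 members, 34 reached the floor over the 4 arrays and were tested. The other 11 were Wnt1, Wnt2b, Wnt3, Wnt3a, Wnt8a, Wnt8b, Wnt9b, Wnt10b, Wnt16, Dkk4 and Rnf43. All of these except Rnf43 were below the floor on each of the 4 arrays. For 9 of the 19 ligands there was thus no reading in either tissue. All 10 receptors, 10 of the 11 secreted inhibitors and 3 of the 4 feedback and nuclear genes were read. Rnf43, a ligase that removes frizzled receptors from the cell surface, had signals of 105 for FoxO6-/- and 141 for WT mandible and maxilla, but 76 and 50 in brain, so it was read in mandible and maxilla alone.

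**Figure D2:**
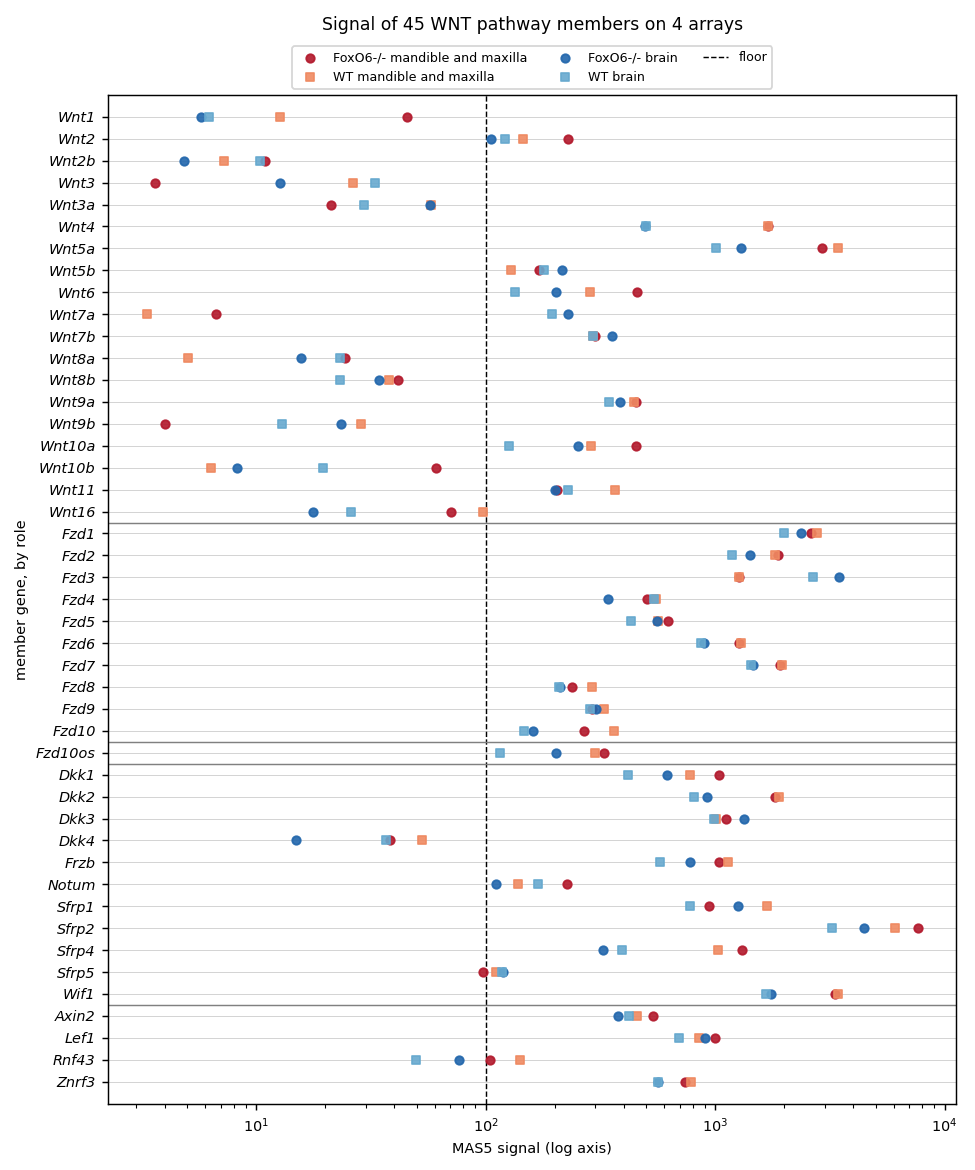
MAS5 signal (horizontal log axis) of the 45 members on the 4 arrays, grouped from top to bottom as ligands, receptors, Fzd10os, secreted inhibitors, and feedback and nuclear genes. The dashed line is the floor at 101, left of which lie 9 of the 19 ligands on every array, while Wnt4 shows 2 mandible and maxilla points above 2 brain points that nearly coincide.

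The first comparison asked which WNT genes differ between mandible and maxilla and brain. Ligands and secreted inhibitors made up the members that were called higher in mandible and maxilla, and 1 receptor and 1 ligand were called higher in brain. In limma on log2 signal with terms for tissue and genotype over 12569 genes, 7 of 34 members (20.6%) were higher in mandible and maxilla at an adjusted p under 0.05, where 6.48% of all genes were. These were the ligands Wnt4, Wnt5a, Wnt6 and Wnt10a and the inhibitors Sfrp4, Dkk2 and Wif1. Of the 34, 2 (5.88%), Wnt7a and Fzd3, were called higher in brain, where 8.73% of all genes were. Wnt7a is the 1 tested member below the floor on both arrays of a tissue. It entered the fit through its brain arrays alone, so its call is a description and not support for a difference. At an unadjusted p under 0.05, 16 members (47.1%) differed between the tissues, as did 33.7% of all genes.

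The side on which the arrays lay was also counted without the test. Both mandible and maxilla arrays were above both brain arrays for 22 of 34 members (64.7%), the 7 called ones included, against 36.4% of all genes, and below them for 4 (11.8%), against 29.1%. These 4 were Fzd3, Sfrp5, Wnt5b and Wnt7a. The median log2 difference, mandible and maxilla minus brain, was 0.39 over the 34 members and 0.05 over all genes. It was 0.52 for the 10 ligands, 0.32 for the 10 receptors and 0.76 for the 10 inhibitors read. After centring each array on its median, the median was 0.27 over the members and -0.07 over all genes.

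Wnt4, a ligand best known from kidney and gonad development, had signals of 1695 for FoxO6-/- and 1699 for WT in mandible and maxilla, whereas brain gave 493 for FoxO6-/- and 498 for WT. The 2 arrays of each tissue nearly coincided, and the tissues did not overlap. The log2 difference was 1.77 ± 0.15 (SE), a 3.42-fold higher signal in mandible and maxilla, with an adjusted p of 0.0140 from limma. Another Wnt4 probe set had 1195 and 1030 against 359 and 299, a log2 difference of 1.76.

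Wnt5a, the ligand most closely tied to the polarity branch and to the outgrowth of face and limbs, had 2907 and 3427 in mandible and maxilla and 1302 and 1011 in brain, in the same order of genotypes. Both mandible and maxilla arrays lay above both brain arrays, by 1.46 ± 0.22 on the log2 scale with an adjusted p of 0.0372 from limma. Its other probe sets at or above the floor gave larger differences of 2.14 and 2.09.

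Wnt6 and Wnt10a, ligands of epithelia that lie next to each other on chromosome 1, had their 4 arrays in the same order. Wnt6 had 454 and 283 in mandible and maxilla and 202 and 135 in brain, and Wnt10a, which is known for tooth and hair development, had 454 and 287 against 251 and 126. On these brightest probe sets the tissues did not overlap, and the FoxO6-/- array was the higher of the 2 within each tissue. The log2 differences between tissues were 1.12 ± 0.15 for Wnt6 and 1.02 ± 0.17 for Wnt10a, with adjusted p of 0.0296 and 0.0467 from limma. The other Wnt6 probe set at the floor had 125 and 192 in mandible and maxilla and 126 and 82 in brain, so that its tissues overlapped, with a log2 difference of 0.61. Beside these ligands, the 5 epithelium markers had a median log2 difference of 1.70 between the tissues, and their part in the result was not tested.

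Among the inhibitors, Sfrp4, a secreted frizzled-related protein that binds WNT ligands and is expressed in bone, had 1307 and 1025 in mandible and maxilla and 325 and 393 in brain. Every mandible and maxilla signal was over 2-fold above every brain signal, and the log2 difference was 1.70 ± 0.22 with an adjusted p of 0.0295 from limma. Dkk2, which blocks the LRP co-receptors, had 1830 and 1892 against 925 and 806, a log2 difference of 1.11 ± 0.16 with an adjusted p of 0.0351 from limma. Wif1, which binds ligands directly, had 3319 and 3446 against 1751 and 1664, a log2 difference of 0.99 ± 0.15 with an adjusted p of 0.0382 from limma. In both, the arrays of a tissue lay close together and the tissues were apart.

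Further members fell just short of the threshold. Sfrp2, a secreted frizzled-related protein of mesenchyme, had 7627 and 6104 in mandible and maxilla and 4446 and 3240 in brain, with an adjusted p of 0.0509 from limma. Dkk1, the founding member of the Dickkopf inhibitors, had 1042 and 775 against 618 and 416, with an adjusted p of 0.0535 from limma. The tissues did not overlap on these probe sets, whereas another Dkk1 probe set at the floor had 210 and 290 against 215 and 146, which overlapped. Fzd10 had 269 and 362 against 161 and 147 and its antisense partner Fzd10os 326 and 300 against 203 and 115, with adjusted p of 0.0657 and 0.0815 from limma.

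Wnt7a, a ligand with roles in synapse formation and in the dorsal limb, was read in brain alone on its brightest probe set. Its signals were 6.7 and 3.3 on the mandible and maxilla arrays, below the floor, and 229 and 194 on the brain arrays. Taken against the floor, the signal was at least 2.1-fold higher in brain, and no p is read from it because the brain arrays alone brought it over the floor. Another Wnt7a probe set, below the floor over the 4 arrays, had 121 and 91 in mandible and maxilla and 54 and 113 in brain, so that the tissues overlapped and its log2 difference of 0.43 was of the opposite sign. The direction for Wnt7a thus rests on 1 probe set.

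Fzd3, a receptor needed for the growth of axon tracts, had 1265 and 1266 in mandible and maxilla and 3471 and 2659 in brain. The brightest probe set was thus 2.40-fold higher in brain, a log2 difference of -1.26 ± 0.18 with an adjusted p of 0.0339 from limma. Its other 3 probe sets at or above the floor pointed the other way, with log2 differences of 1.16, 0.58 and 0.31, and the mean of all Fzd3 probe sets gave 0.52 with an adjusted p of 0.175 from limma. The direction for Fzd3 therefore rests on the probe set chosen.

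Of the other 9 receptors 0 passed the test in limma, with log2 differences from 0.06 for Fzd9 to 1.02 for Fzd10. The unadjusted p from limma was under 0.05 for Fzd10, Fzd6 and Fzd2, with 0.0123, 0.0278 and 0.0416. Fzd6, a polarity receptor, had 1272 and 1296 in mandible and maxilla and 895 and 866 in brain, and Fzd7 had 1923 and 1952 against 1468 and 1429. For both, the tissues did not overlap, with adjusted p of 0.105 and 0.159 from limma. Axin2 and Lef1, which are common readouts of canonical signaling, had log2 differences of 0.31 and 0.22 with adjusted p of 0.323 and 0.395 from limma. The Lef1 signals of 995 and 851 in mandible and maxilla overlapped with those of 901 and 698 in brain.

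**Figure D3:**
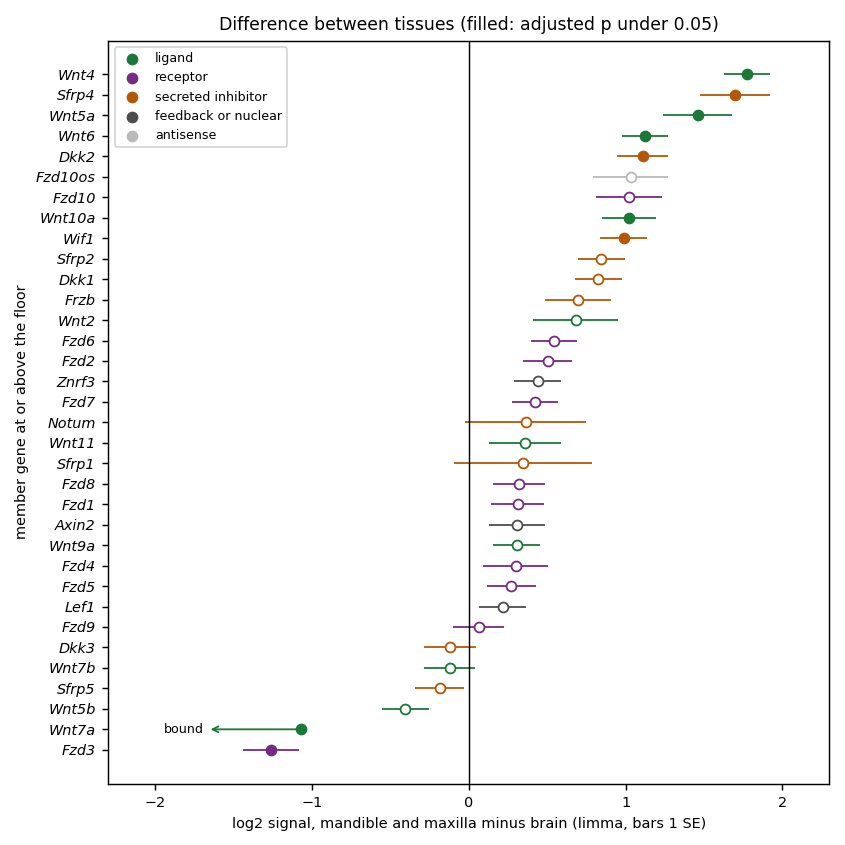
Log2 signal in mandible and maxilla minus brain (horizontal axis) of the 34 members at or above the floor, from limma with bars of 1 SE and 2 arrays per tissue. Filled points, 7 to the right of 0 and 2 to the left, had an adjusted p under 0.05, and Wnt7a is drawn at its bound with an arrow because both mandible and maxilla signals were below the floor.

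Each array was also left out in turn, in fits with tissue as the only term, so the genotype term was dropped along with the array. Each of these fits left 1 array in 1 tissue, so only effect sizes are given. The log2 difference ran from 1.77 to 1.78 for Wnt4, 1.28 to 1.64 for Wnt5a and 1.52 to 1.87 for Sfrp4. It ran from 1.01 to 1.21 for Dkk2 and 0.95 to 1.02 for Wif1. The range was wider for Wnt6, from 0.78 to 1.46, and for Wnt10a, from 0.52 to 1.52. Direction was kept by all 9 called members in each of these fits. Their tissues did not overlap, so leaving out an array could not have changed it. With all 4 arrays and no genotype term, Wnt6 and Wnt10a were lost, with adjusted p of 0.0723 and 0.153 from limma. When all probe sets were averaged, Wnt4, Wnt5a and Sfrp4 alone were called higher in mandible and maxilla. With no floor, where 18193 genes entered the fit, 0 of the 9 calls were kept, and their adjusted p from limma ran from 0.118 for Wnt7a to 0.188 for Wnt10a.

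Other genes of the pathway were read from a list of 63, covering secretion and co-receptors, R-spondins and LGR receptors, further extracellular modulators, beta-catenin regulation, TCF factors, feedback genes and planar polarity. Of these, 60 were named, 55 reached the floor, 4 (7.27%) were higher in mandible and maxilla and 5 (9.09%) were higher in brain in limma, shares close to those of all genes. Of these 9, Dkkl1, Draxin, Celsr3 and Apc2 were below the floor on both arrays of the other tissue and entered the fit through the tissue where they were high, so only bounds are given for them. Sostdc1, an inhibitor of WNT and BMP signaling with a role in tooth number, had 5051 and 4914 in mandible and maxilla and 1510 and 1285 in brain, with an adjusted p of 0.0144 from limma. Rspo1, a secreted enhancer of WNT signaling, and Ptk7, a co-receptor of the polarity branch, had adjusted p from limma of 0.0495 and 0.0488. Dkkl1, a relative of the Dickkopf inhibitors, had 255 and 197 against 46 and 7.4, at least 2.23-fold higher in mandible and maxilla.

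The pathway genes higher in brain included Apc, the scaffold of the beta-catenin destruction complex, with 1046 and 1407 in mandible and maxilla and 7833 and 6097 in brain and an adjusted p of 0.0201 from limma. Btrc, a subunit of the ligase that marks beta-catenin for destruction, had 215 and 198 against 462 and 415, with an adjusted p of 0.0309 from limma. For both genes the tissues were apart on the brightest probe set, of 4 for Apc and of 5 for Btrc, and the other probe sets are not given. Draxin, a secreted axon guidance protein that antagonizes WNT signaling, had 58 and 98 against 548 and 535, at least 5.38-fold higher in brain. Celsr3, a polarity cadherin of axon tracts, had 4.4 and 15 against 277 and 352, at least 3.1-fold higher. For Apc2, a relative of Apc, 57 and 40 against 266 and 257 gave at least 2.59-fold. These calls stood beside 8 neuron markers of which 7 were called higher in brain, as were 1 choroid plexus and 1 endothelium marker. The part of such cells in these differences was not tested.

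The second comparison was that of FoxO6-/- with WT within mandible and maxilla. Of 34 members read there, with Rnf43 and without Wnt7a, 0 were higher by 2-fold or more and 0 were lower by as much, where 0.591% and 1.69% of 12186 genes were. At 1.5-fold, 4 members (11.8%) were higher, against 3.48% of all genes, and 2 (5.88%) were lower, against 6.5%. The higher ones were Wnt2, Wnt6, Wnt10a and Notum, and the lower ones were Wnt11 and Sfrp1. The median log2 ratio was -0.0019 over the members and -0.0082 over all genes, and after median centring 0.13 and 0.12.

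Notum, an enzyme that strips the lipid from WNT ligands, had 225 in FoxO6-/- against 138 in WT, a log2 ratio of 0.71. Wnt6, with the signals given above, had 0.68 and Wnt10a 0.66, and Wnt2 had 227 against 145, a log2 ratio of 0.65. The other Wnt6 probe set at the floor lay on the other side of 0, with 125 against 192 and a log2 ratio of -0.62. Wnt11, a ligand of the polarity branch, had 205 against 366, a log2 ratio of -0.83. Notum, Wnt2, Wnt10a and Wnt11 had 1 probe set each.

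Sfrp1, a secreted frizzled-related inhibitor, had 939 in FoxO6-/- against 1678 in WT, a log2 ratio of -0.84. It has 5 probe sets and all were lower, with the other log2 ratios between -0.87 and -0.63. Among 12 members with several probe sets at the floor in this tissue, the probe sets pointed one way in 2, whereas in brain they did so in 9 of 10. The FoxO6-/- mandible and maxilla array also had the highest 3' to 5' ratios, whose part in the genotype ratios was not tested. Cartilage markers were lower on the same array, with summed signals of 29010 against 45740 over 7 genes, all 7 lower, as were all 8 neuron markers with 3678 against 5508. Of 4 olfactory neuron markers read there 3 were lower, with a median log2 ratio of -1.84 and summed signals of 1056 against 1927 over 5 genes. Of the other markers read there, 5 of 5 for enamel, 5 of 5 for epithelium and 4 of 5 for endothelium were higher. So were 3 of 6 for skeletal muscle, 2 of 4 for bone, 1 of 2 for choroid plexus and 1 of 1 for T cells. These lists had medians of 0.57, 0.36, 0.23, 0.01, 0.04, -0.64 and 0.47. The part of any of these tissues in the Sfrp1 ratio was not tested.

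The log2 ratios of the receptors in mandible and maxilla ran from -0.43 for Fzd10 to 0.14 for Fzd5, with 8 of 10 below 0 and a median of -0.06, which turned to 0.08 after median centring. Fzd3 had 1265 against 1266 and Wnt4 1695 against 1699. Lef1 had 995 in FoxO6-/- and 851 in WT and Axin2 had 536 against 455, log2 ratios of 0.22 and 0.24, both smaller than the SD between probe sets of a gene.

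In brain, the genotypes were compared on arrays that mandible and maxilla did not share. Again 0 of 34 members, now with Wnt7a and without Rnf43, were higher by 2-fold or more and 0 lower by as much, where 1.13% and 2.03% of 12327 genes were. At 1.5-fold, 3 members (8.82%), Wnt10a, Fzd10os and Sfrp1, were higher, against 4.05% of all genes, and 2 (5.88%), Fzd4 and Notum, were lower, against 6.25%. Smaller ratios lay mostly above 0. Of the members 27 of 34 (79.4%) were above 0, as were 57.3% of all genes, and the median log2 ratio was 0.22 against 0.05. Markers of cartilage (7 of 7), epithelium (5 of 5), neurons (8 of 8) and olfactory neurons (3 of 3) were also higher there. Their median log2 ratios were 0.81, 0.50, 0.37 and 0.42. Fewer were higher among markers of endothelium (0 of 5), skeletal muscle (1 of 6), choroid plexus (2 of 5) and bone (2 of 4). These lists had medians of -0.25, -0.24, -0.38 and 0.15. The part of any marker list in the members' median was not tested. The median log2 ratio of the receptors was 0.11, with 9 of 10 above 0, and that of the inhibitors was 0.32. After median centring, 28 of 34 members and 9101 of 12327 genes were above 0, with medians of 0.36 and 0.20.

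Wnt10a had 251 in FoxO6-/- brain against 126 in WT brain, a log2 ratio of 0.997 that lay just under 2-fold and passed it after quantile normalization or median centring. Wnt6, its neighbour on the chromosome, had 202 against 135, a log2 ratio of 0.58 that lay just under 1.5-fold. On their brightest probe sets both ligands were higher on the FoxO6-/- array in both tissues, while in mandible and maxilla the other Wnt6 probe set at the floor was lower and the mean of all Wnt6 probe sets gave 0.03. The 5 epithelium markers were also higher on both FoxO6-/- arrays, each of them in each tissue, with median log2 ratios of 0.36 in mandible and maxilla and 0.50 in brain. Their part in the Wnt6 and Wnt10a ratios was not tested.

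Sfrp1 had 1259 in FoxO6-/- brain against 774 in WT brain, a log2 ratio of 0.70. All 5 probe sets were higher, with ratios between 0.07 and 0.86, whereas all 5 were lower in mandible and maxilla. Cartilage markers had summed signals of 50660 against 29520 and neuron markers 53140 against 42270, with 7 of 7 and 8 of 8 higher in FoxO6-/- brain. Olfactory neuron markers had 2890 against 1878, with 3 of 3 read ones higher and a median log2 ratio of 0.42. The medians of these lists had the signs of Sfrp1 in both tissues. Those of epithelium, bone, muscle, endothelium and choroid plexus did not. The part of any list in the Sfrp1 ratios was not tested.

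Notum had 111 in FoxO6-/- brain against 169 in WT brain, a log2 ratio of -0.60, so that it too differed in opposite directions in the 2 tissues, on a single probe set with signals near the floor. Fzd4, the receptor of the Norrin pathway in blood vessels, had 340 against 542, a log2 ratio of -0.67, and its other probe set at the floor had 369 against 583 and -0.66. Endothelium markers had summed signals of 4189 against 5100, with all 5 lower in FoxO6-/- brain and a median of -0.25, and their part in the Fzd4 ratio was not tested. Fzd10os had 203 against 115, a log2 ratio of 0.82, beside 161 against 147 for Fzd10.

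**Figure D4:**
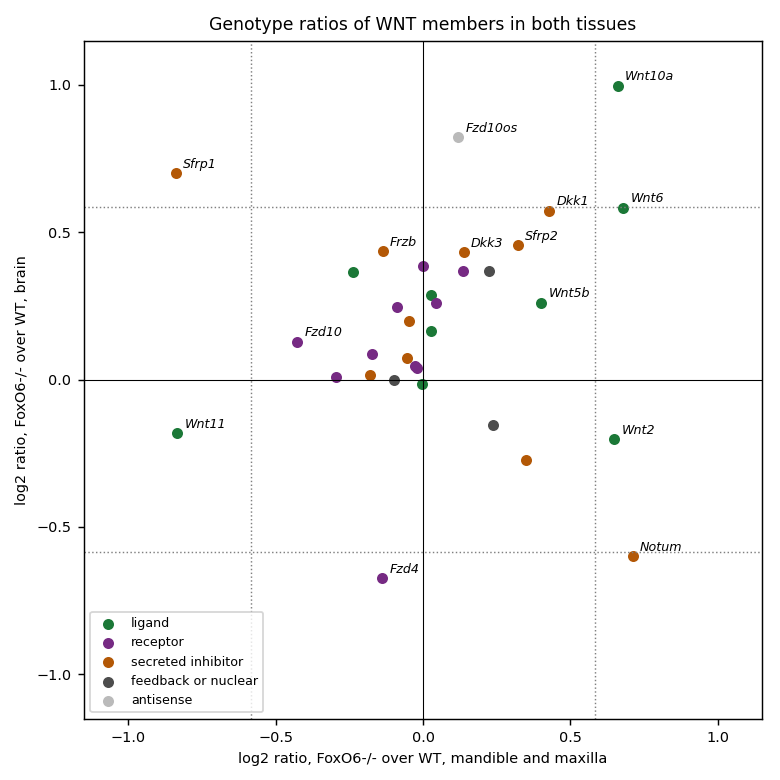
Log2 ratio of FoxO6-/- over WT in mandible and maxilla (horizontal axis) and in brain (vertical axis), with 1 point, the brightest probe set, per member at or above the floor in both tissues and dotted lines at 1.5-fold. Wnt10a and Wnt6 lie to the upper right, Sfrp1 to the upper left with -0.84 and 0.70, and Notum to the lower right with 0.71 and -0.60.

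**Figure D5:**
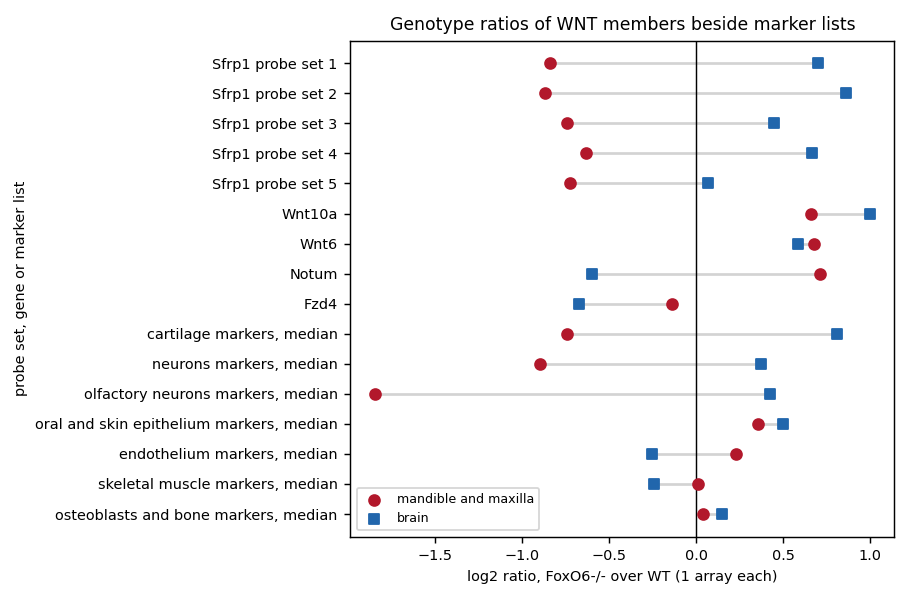
Log2 ratio of FoxO6-/- over WT (horizontal axis, 1 array each) of single members and of the 5 Sfrp1 probe sets, with marker list medians below them. Circles are mandible and maxilla and squares brain. The Sfrp1 probe sets lie left of 0 in mandible and maxilla and right of it in brain, as do the cartilage, neuron and olfactory medians.

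Over both tissues together, 0 of the 34 members passed an adjusted p under 0.05 between genotypes in limma with tissue as a term, as did 0% of 12569 genes. At an unadjusted p under 0.05 there were 3 members (8.82%), Wnt10a, Wnt6 and Dkk1, and 588 of all genes (4.68%). Wnt10a had a log2 fold change of 0.83 ± 0.17 (SE), Wnt6 of 0.63 ± 0.15 and Dkk1 of 0.50 ± 0.15. All 3 had an adjusted p of 0.902 from limma, and on these probe sets the FoxO6-/- array was the higher in both tissues. The other Wnt6 probe set at the floor had log2 ratios of -0.62 in mandible and maxilla but 0.61 in brain. Another Dkk1 probe set had log2 ratios of -0.47 in mandible and maxilla but 0.56 in brain.

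Of the listed genes of the wider pathway, 52 were read in mandible and maxilla and 54 in brain, and 0 differed by 2-fold in either tissue. Few of all genes did so, with 0.591% higher and 1.69% lower in mandible and maxilla and 1.13% and 2.03% in brain. All 6 feedback and target genes, all 6 R-spondin and LGR genes and all 7 secretion and co-receptor genes read in brain were higher on the FoxO6-/- array, with median log2 ratios of 0.28, 0.21 and 0.18, where the median over all genes was 0.05. Of the other lists in brain, 8 of 11 genes of beta-catenin regulation, 4 of 6 other extracellular modulators, 5 of 9 TCF factors and cofactors and 5 of 9 planar polarity genes were higher, with medians of 0.12, 0.13, 0.02 and 0.05. In mandible and maxilla 4 of 6, 3 of 6 and 4 of 7 genes of the first 3 lists were higher. In brain the marker lists given above moved in both directions on the same arrays, and their part in these ratios was not tested.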

How the data were processed

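RNA was measured on 4 Affymetrix arrays, 1 for each tissue and genotype, which the sample labels gave. Per the methods the authors normalized with MAS5 and used limma. The deposited values are MAS5 intensity on a linear scale, 1 per probe set, scaled between arrays by the authors, and no version of MAS5 is given in the sources used here. Of 45101 probe sets, 64 were controls, 34945 had 1 gene in the platform annotation, 932 had several and 9160 were unnamed and not analysed here. Signals were taken to log2. The fit was limma 3.58.1 in R 4.3.3, with tissue and genotype as terms, 1 residual degree of freedom and p-values adjusted by Benjamini-Hochberg over 12569 genes. A run on simulated data planted tissue differences larger than those of any called member read in both tissues. It does not show how the fit performs at the differences reported here. With both terms fitted, the residual of a gene is how far its tissue difference changed between genotypes. The fit moderated this spread toward a value shared by all 12569 genes, with 2.4 prior degrees of freedom against 1 residual. Since the arrays of a tissue differ in genotype and are not repeats of one group, SEs and p-values measure only this moderated spread.

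The members, the pathway and marker lists and the rules for naming genes were chosen with earlier results of these data known. All members could be named. Full signals are given for called members and for members that differed by 1.5-fold between genotypes, and some others close to these limits were chosen after their values were seen. Pathway genes were named where called. The alternatives changed the scaling (quantile or median) and the floor (none, the 75th percentile at 524, or low signals set to it). They also changed the probe set (all averaged, or only gene-specific ones). The fit was changed by a variance trend, by no tissue or genotype term, or by leaving out each array together with the genotype term. Tables were handled in Python 3.11.15 with pandas 2.3.3.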

Additional observations from a re-analysis of the deposited data

Results flagged for a closer look

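Sfrp1 and Notum differed by at least 1.5-fold between genotypes in opposite directions in the 2 tissues. The log2 ratio of FoxO6-/- over WT in mandible and maxilla minus that in brain was -1.54 for Sfrp1 and 1.31 for Notum. With 1 array per tissue and genotype this difference was not tested. For Sfrp1 the 5 probe sets had the same signs. The medians of cartilage, neuron and olfactory neuron markers had those signs too, and those of the other marker lists read in both tissues did not. Notum had 1 probe set, and its 4 signals lay between 111 and 225.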

How the results depend on the processing

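The labels carry no replicate numbers, and the fit pairs the arrays of the tissues by genotype. Without the genotype term 6 members were higher in mandible and maxilla, and Wnt6 and Wnt10a were lost with adjusted p of 0.0723 and 0.153 from limma. Members called higher in mandible and maxilla numbered 7, and 0 with no floor, 11 with low signals raised to the floor and 3 when all probe sets were averaged. Those higher in brain numbered 2, and 0 with no floor, 1 with the floor at the 75th percentile and 0 when all probe sets were averaged. With no floor the limma fit ran over 18193 genes. With no floor, 3 members were higher by 2-fold and 3 were lower in FoxO6-/- mandible and maxilla, and 4 were lower in FoxO6-/- brain. All of these were members below the floor on each of the 4 arrays. The mean of all probe sets gave 3 lower in brain. Shares of all genes were not counted under the alternatives, so these counts are not read as results about the members. Quantile normalization and median centring each gave 1 member higher in FoxO6-/- brain, Wnt10a. Fzd3 reversed to a log2 difference of 0.52 between tissues when all probe sets were averaged. With the same mean the log2 genotype ratio of Wnt6 was 0.03 in mandible and maxilla and that of Fzd4 was -1.19 in brain. Median centring moved the ratios of all genes by 0.13 in mandible and maxilla and 0.14 in brain, and the difference between tissues by -0.12. Under each of the 9 alternatives to the genotype fit over both tissues, 0 members passed.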
